A study of Mus musculus with 4 samples.

Results

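Gene expression was examined for 9 enzymes of drug metabolism that lie outside the cytochrome P450 family, in induced hepatocyte-like (iHep) cells grown in 2D or 3D culture. They are the flavin-containing monooxygenases Fmo1, Fmo2, Fmo4 and Fmo5, the aldehyde oxidases Aox1 and Aox3, the hydrolases Aadac and Ephx1, and the electron donor Por. They were chosen by name, and the array's annotation was searched for their current symbols and older aliases. The search found all 9 genes with 15 probes, out of 27975 gene names and 41174 probes on the array. The cells were of C57BL/6 mice and, per the labels, were derived from cells called MDFs, a name that is not spelled out there. Two-dimensional culture spreads cells on a flat surface and three-dimensional culture lets them contact each other on all sides; the sources used here do not say how the 3D culture was set up. The iHep cells had been prepared on 2 independent occasions, called the experiments iHep-1 and iHep-2 here, and each of them gave 1 array of 2D and 1 array of 3D culture. Each culture and each experiment therefore had 2 arrays, 4 in all. A plus sign stands in the sample titles of 2D cultures alone; what it marks is not stated, and it cannot be told apart from culture.

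Phase I enzymes add or expose a polar group on a drug or other foreign compound, and conjugating enzymes then attach a soluble group to it. Flavin-containing monooxygenases sit in the endoplasmic reticulum and oxidise nitrogen and sulfur atoms with a bound flavin and NADPH, without the help of a separate reductase. Aldehyde oxidases are cytosolic enzymes that oxidise aldehydes and nitrogen heterocycles and carry a molybdenum cofactor. Aadac, arylacetamide deacetylase, cleaves amides and esters in the lumen of the endoplasmic reticulum, Ephx1 adds water to epoxides, and Por passes electrons from NADPH to the microsomal P450s. All of these activities are known from liver.

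The array reads each transcript with a probe of 60 bases, and what was measured for a gene is the brightness of that probe. The probes of 4 members are shown, 1 from each of the monooxygenases and aldehyde oxidases and both hydrolases, because the differences between cultures or experiments described below rest on them. They are written 5′ to 3′ in lower case with nothing marked, as the scanner files give them.
Aadac: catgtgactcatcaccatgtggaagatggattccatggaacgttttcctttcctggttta
Aox3: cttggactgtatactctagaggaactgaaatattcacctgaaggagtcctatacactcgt
Fmo4: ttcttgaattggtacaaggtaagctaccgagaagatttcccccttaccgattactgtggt
Ephx1: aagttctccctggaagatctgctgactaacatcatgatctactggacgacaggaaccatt
On mouse genome build mm9, the build the files use, the Aadac probe lies at chr3:59843885-59843944 on the plus strand and the Aox3 probe at chr1:58245203-58245262 on the plus strand. The Fmo4 probe lies at chr1:164724109-164724168 on the minus strand, and the Ephx1 probe at chr1:182920589-182920648 on the minus strand. The probes of Fmo1 at chr1:164760037-164760096 and Fmo2 at chr1:164805530-164805589 lie on the same strand as that of Fmo4 and close to it. The Aox1 probe at chr1:58163025-58163084 is likewise a near neighbour of the Aox3 probe. The Fmo5 probe lies at chr3:97456171-97456230 and the Por probe at chr5:136211116-136211175, both on the plus strand. Exon annotation of this build was not used here.

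Levels are log2 of the processed signal minus the array's 75th percentile, so that 0 is the brightness of that percentile, and a higher level means higher relative to the rest of that array. Values are given in the order iHep-1 then iHep-2, and a difference is 3D minus 2D in log2 units unless stated. A level is compared only with levels of the same probe. The 75th percentile lay between 399 and 616 intensity units on the 4 arrays, and 23061 to 24414 probes per array were well above background by the scanner software's own flag. Hepatocyte markers were present, with Alb at 9.11 in 2D against 8.94 in 3D of iHep-1 and 8.82 and 9.57 in iHep-2, although Tdo2 was not well above background on any array. The summed linear level of the 11 hepatocyte markers with a probe was 925 and 961 in 2D and 3D of iHep-1 and 779 and 1624 in iHep-2, a sum carried by Alb and Apoa1. Of the 10 tested, 6 were higher in 3D in both experiments, among them Cps1 (2.59 and 2.33), Asgr1 (1.11 and 6.21) and G6pc (1.52 and 6.75). Alb, Ttr (-0.33 and 1.86), Serpina1c (-0.23 and 0.54) and Hnf4a (-0.81 and 0.23) were lower in 3D of iHep-1 and higher in 3D of iHep-2. That of 13 fibroblast markers was 17.9 and 41.7 in iHep-1 and 63.4 and 25.3 in iHep-2, a sum mostly of Vim, which differed by 1.11 and -1.96. Of 7 tested, 3 were higher in 3D in both experiments, S100a4 (3.74 and 2.61), Col1a2 (1.23 and 0.22) and Pdgfra (0.65 and 0.65). In both, 2 were lower, Pdgfrb (-1.08 and -3.33) and Twist2 (-0.08 and -1.06). Thy1, Dcn, Lum and Postn were not well above background on any array. Col1a1 and Col3a1 were well above background only in 3D culture of iHep-1. The part of these markers in the differences below was not tested, and in bulk RNA fewer cells of a type and less RNA per cell cannot be told apart.

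The signal of all 9 genes was higher in 3D than in 2D culture in both experiments, by 0.23 to 7.62 log2 units in iHep-1 and by 1.17 to 6.75 in iHep-2. The lowest of these, Fmo2 in iHep-1, lay between 2 arrays not well above background, and the highest, Aadac in iHep-1, started from such an array. Over all 16451 tested genes, 33.2% were higher in 3D in both. At least 1 log2 unit higher were 5 of 9 in iHep-1 alone (7.8% of all genes) and 9 of 9 in iHep-2 (12.6%). Fmo1, Fmo5, Aox1, Aox3 and Aadac were at least 1 log2 unit, or 2-fold, higher in both experiments, 5 of 9, where 4.26% of all tested genes were. The median difference of the 9 genes was 1.26 in iHep-1 and 3.36 in iHep-2, against -0.02 and 0.04 for all genes. For 7 of 9 genes both 3D arrays lay above both 2D arrays (19.8% of all genes), and the exceptions were Fmo2 and Fmo4.

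No member passed the adjusted threshold of 0.05. The fit with limma called 0% of the 16451 genes in either direction, with 2 arrays per group and experiments that differed within each culture. At an unadjusted p under 0.05, 2 of 9 members were higher in 3D, Fmo5 and Aox1, where 4.05% of all genes were, and 7.03% (1157 genes) passed in either direction. With the experiment as a block, which sets each 3D array against the 2D array of its own experiment, again no gene passed the adjusted threshold. At an unadjusted p under 0.05 that fit held 4 of 9, Fmo1, Fmo5, Aox1 and Aadac, against 8.35% of all genes.

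The background correction and the scale of an array bear on these counts. With normexp, another background correction, 7 of 9 members were higher in 3D in both experiments. Fmo2 (-0.14) and Fmo4 (-0.11) were then lower in 3D of iHep-1. The share of all genes is not given for that correction. Scaling to 6 spike-in probes, whose signal was 1.85 log2 units higher on the 3D than on the 2D array of iHep-1 and 0.10 lower in iHep-2 (-0.10), moved the median difference of all genes to -1.08. On that scale 4 of 9 members were higher in 3D in both experiments, Fmo1, Fmo5, Aox1 and Aadac. The share of all genes higher in both is not given for that scale, and the 33.2% above does not apply to it. The median difference of all genes there was -1.69 in iHep-1 and -0.49 in iHep-2. Fmo2, Fmo4, Aox3, Ephx1 and Por were then lower in 3D of iHep-1, by values from -0.41 for Aox3 to -1.44 for Fmo2, while all 9 stayed higher in 3D of iHep-2. Limma then called 291 genes, 76 higher and 215 lower, with Fmo1 (3.65, adjusted p = 0.0146) and Aadac (6.09, adjusted p = 4.86e-07) among the higher. In that fit the prior was infinite, so that 1 spread was shared by all genes. Mean differences that scaling moved by over 1.5 times were those of Fmo2 (0.70), Fmo4 (0.64), Fmo5 (0.77), Aox1 (1.71), Ephx1 (0.21) and Por (-0.30). The differences reported here are therefore relative to the bulk of genes on the same array.

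**Figure D1:**
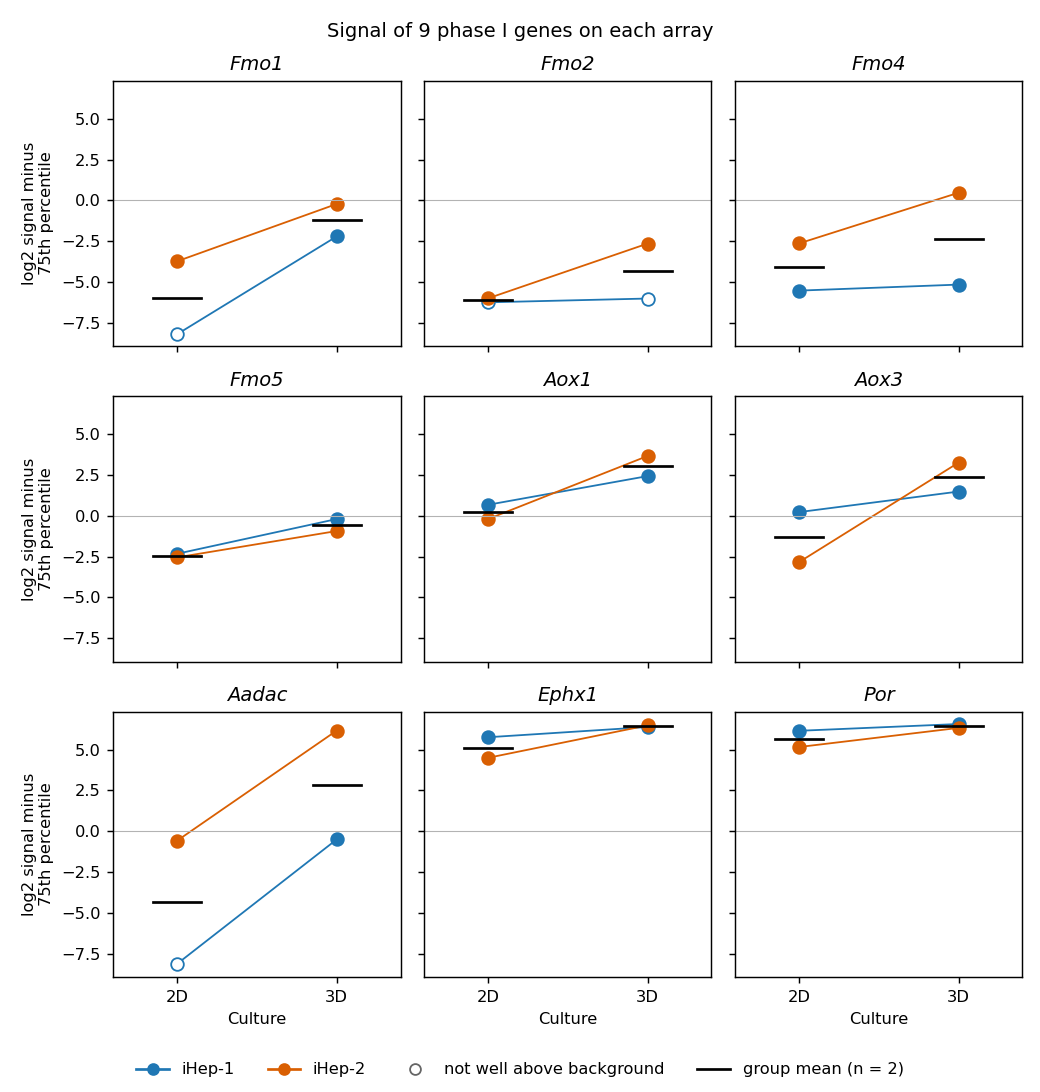
Level of each of the 9 genes on each of the 4 arrays, as log2 signal minus the array's 75th percentile (vertical axis) by culture (horizontal axis). Lines join the 2 arrays of an experiment, open circles are not well above background, black bars are means of 2 arrays, and levels are to be read within a panel only; every line slopes upward from 2D to 3D, by 0.23 to 7.62 log2 units in iHep-1 and 1.17 to 6.75 in iHep-2.

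Fmo1 is the monooxygenase best known from mouse liver and kidney. Its level was -8.20 in 2D against -2.21 in 3D of iHep-1, and -3.73 in 2D against -0.22 in 3D of iHep-2. Both 3D arrays were above both 2D arrays, and the lowest value, in 2D of iHep-1, was not well above background. In iHep-1 the gene was therefore at least 13.7-fold higher in 3D, a bound in which the dim side is replaced by the lowest signal well above background on that array. In iHep-2, where both arrays were measured, it was 11.4-fold higher. The mean difference was 4.75 (SE 1.84, limma adjusted p = 0.684, n = 2 arrays per group), and the adjusted p was 0.258 with the experiment as a block. The mean was 2.52 without 2D of iHep-1, 6.99 without 2D of iHep-2 and 2.04 with normexp. Here and below, a mean without an array mixes the culture difference with that between experiments, because 1 culture then lacks an experiment. A second Fmo1 probe, designed on a longer transcript, was not well above background on any array.

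Fmo2, the main monooxygenase of lung, was dim. It stood at -6.25 in 2D against -6.02 in 3D of iHep-1, neither well above background, and at -6.00 in 2D against -2.65 in 3D of iHep-2. Only the 3D array of iHep-2 stood apart, and the culture groups overlapped. The gene passed the filter through the iHep-2 arrays alone. The mean difference of 1.79 had an SE of 1.28 (limma adjusted p = 0.751, n = 2 per group), and it was 0.11 without 3D of iHep-2, 3.48 without 3D of iHep-1 and 0.67 with normexp. A second probe gave a like pattern, with -7.99 and -6.66 in iHep-1 and -5.85 and -2.47 in iHep-2, and the dimmest probe was not well above background on any array.

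Fmo4, a minor monooxygenase of liver and kidney, differed between cultures mainly in iHep-2. Its levels were -5.53 in 2D against -5.16 in 3D of iHep-1, and -2.64 in 2D against 0.47 in 3D of iHep-2, well above background on all 4 arrays. The iHep-1 levels were near the lowest signal well above background, which was -5.98 in 2D and -6.06 in 3D. Both iHep-2 arrays lay above both iHep-1 arrays, so that the culture groups overlapped. The culture differences were 0.37 and 3.11, a mean of 1.74 (SE 2.37, limma adjusted p = 0.863, n = 2 per group). The mean was -1.08 without 3D of iHep-2, 4.55 without 3D of iHep-1, 0.29 without 2D of iHep-1 and 3.18 without 2D of iHep-2. With normexp the culture differences were -0.11 and 2.51, a mean of 1.20.

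Fmo5, a monooxygenase that can oxidise ketones to esters, was the most even of the 4 between experiments. Its levels were -2.33 in 2D against -0.20 in 3D of iHep-1, and -2.55 in 2D against -0.93 in 3D of iHep-2. The culture groups were separate, and the spread within each, an SD of 0.16 in 2D and 0.52 in 3D, was below the mean difference of 1.87. Its SE of 0.35 and unadjusted p of 0.0082 gave a limma adjusted p of 0.684 over all genes (n = 2 per group), and 0.237 with the experiment as a block. All 3 probes of the gene were higher in 3D in both experiments. The second brightest read -2.91 and -0.61 in iHep-1 and -3.29 and -1.59 in iHep-2. The dimmest, not well above background in 2D of iHep-1, was at least 5.91-fold higher in 3D there.

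**Figure D2:**
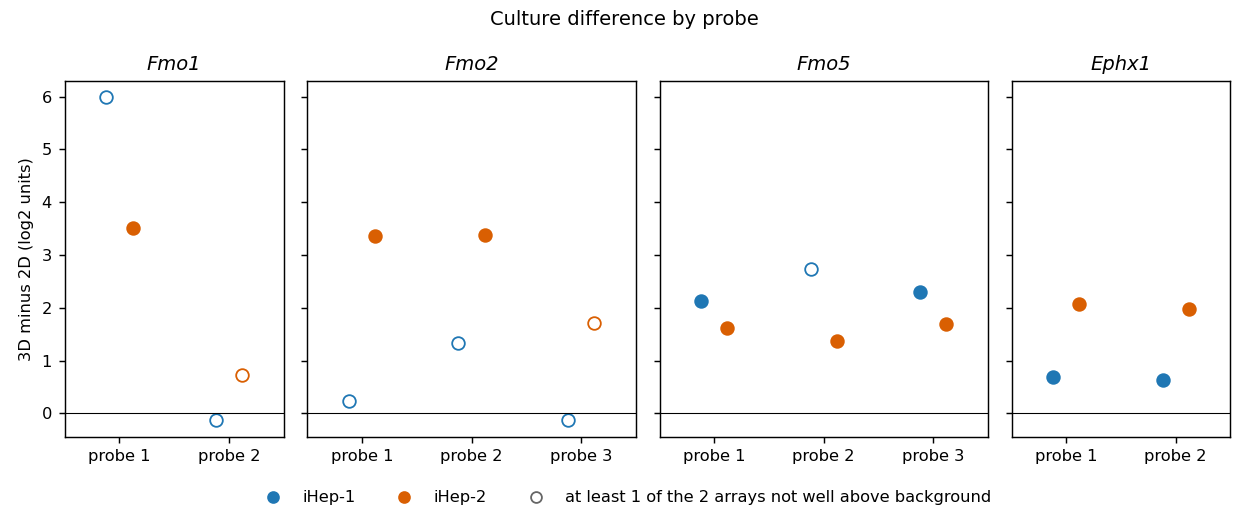
Difference between 3D and 2D (vertical axis, log2 units) for each probe (horizontal axis) of the 4 genes that have several, by experiment; open circles have at least 1 array not well above background. The 3 Fmo5 probes and both Ephx1 probes lie above 0 in both experiments, while the dimmer Fmo1 probe and the dimmest Fmo2 probe, not well above background on any array, lie just below 0 in iHep-1.

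The aldehyde oxidases of mouse are encoded side by side on chromosome 1, and Aox1 and Aox3 are the forms known from liver. Aox1 stood at 0.68 in 2D against 2.44 in 3D of iHep-1, and at -0.20 in 2D against 3.67 in 3D of iHep-2, all well above background. Both 3D arrays were above both 2D arrays. The differences of 1.76 and 3.87 had a mean of 2.81, above the SD within either culture (0.62 in 2D and 0.87 in 3D). Its SE was 0.60 and its unadjusted p 0.012, with a limma adjusted p of 0.684 (n = 2 per group) and 0.321 with the experiment as a block.

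Aox3 stood at 0.23 in 2D against 1.49 in 3D of iHep-1, and at -2.84 in 2D against 3.26 in 3D of iHep-2. The iHep-2 arrays were thus both the lowest and the highest of the 4, and the groups did not overlap. The difference was 1.26 in iHep-1 and 6.10 in iHep-2, the largest gap between experiments of any member, and it was not tested beyond these single arrays. The mean of 3.68 had an SE of 1.34 (limma adjusted p = 0.684, n = 2 per group) and was 2.15 without 2D of iHep-2. Both oxidases differed more in iHep-2 than in iHep-1, as did 6 of the 9 genes (52.4% of all genes). The others of the 6 were Fmo2, Fmo4, Ephx1 and Por. Fmo1 and Aadac, outside the 6, were not well above background in 2D of iHep-1. As bounds, Fmo1 differed by at least 3.77 in iHep-1 against 3.51 in iHep-2. Aadac differed by at least 5.48 against 6.75, so its order is not settled. With normexp both differed more in iHep-2, Fmo1 by 1.53 and 2.55 and Aadac by 2.80 and 6.44.

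Aadac hydrolyses acetylated arylamines and drugs and is known chiefly from liver and gut. Its level was -8.12 in 2D against -0.50 in 3D of iHep-1, and -0.57 in 2D against 6.17 in 3D of iHep-2, a span from a processed signal of 1.88 to one of 28780 intensity units. The 3D array of iHep-1 and the 2D array of iHep-2 were nearly level, at 421 and 414 intensity units. Both cultures were therefore ordered the same way in each experiment, but the experiments were about as far apart as the cultures. The 2D array of iHep-1 was not well above background, and the bound there was at least 44.7-fold higher in 3D. In iHep-2, with both arrays measured, the gene was 107.3-fold higher.

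The mean culture difference of Aadac was 7.18, with an SE of 3.77 and a limma adjusted p of 0.704 (n = 2 per group). With the experiment as a block the SE was 0.33 and the adjusted p 0.142, in a fit that takes the dim value in 2D of iHep-1 as measured. Raising values below background to the lowest signal well above it, a setting added after the data were seen, gave a mean of 6.11. The adjusted p of limma with the block was then 0.147. The mean was 3.41 without the 2D array of iHep-1, 3.85 without 3D of iHep-2, 10.52 without 3D of iHep-1 and 10.96 without 2D of iHep-2, and 4.62 with normexp. Intestinal markers were looked at because gut also makes Aadac: their summed linear level was 21.5 in 2D against 33.8 in 3D of iHep-1, and 16.8 and 43.5 in iHep-2. Vil1 made up most of that sum in both 2D cultures. Of 7 such markers with a probe, 3 were not well above background on any array, Vil1 and Fabp2 were higher in 3D in both experiments, and Cdx2 (-0.43 and -0.08) and Cdh17 (-0.61 and -1.69) were lower. Their part in the difference was not tested.

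Ephx1, the microsomal epoxide hydrolase, was bright on every array. It read 5.76 in 2D against 6.39 in 3D of iHep-1, and 4.50 in 2D against 6.49 in 3D of iHep-2. The 3D arrays were close together, with an SD of 0.07 against 0.89 in 2D, and the lowest array was 2D of iHep-2. The differences of 0.63 and 1.99 gave a mean of 1.31 (SE 0.51, limma adjusted p = 0.684, n = 2 per group), which was 0.68 without 2D of iHep-2. A second probe repeated these values, with 5.63 and 6.31 in iHep-1 and 4.33 and 6.39 in iHep-2.

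Por had the smallest mean culture difference of the 9 on this scale, although Fmo2 and Fmo4 differed less in iHep-1 and Fmo2 had the smaller mean with normexp (0.67 against 0.77). It read 6.16 in 2D against 6.57 in 3D of iHep-1, and 5.16 in 2D against 6.33 in 3D of iHep-2. As with Ephx1, the 2D array of iHep-2 was the lowest and the 3D arrays were close, with an SD of 0.17 against 0.70 in 2D. The mean difference was 0.79 (SE 0.43, limma adjusted p = 0.711, n = 2 per group), and it was 0.30 without 2D of iHep-2 and 1.29 without 2D of iHep-1. It was the only member whose mean changed sign on the spike-in scale.

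**Figure D3:**
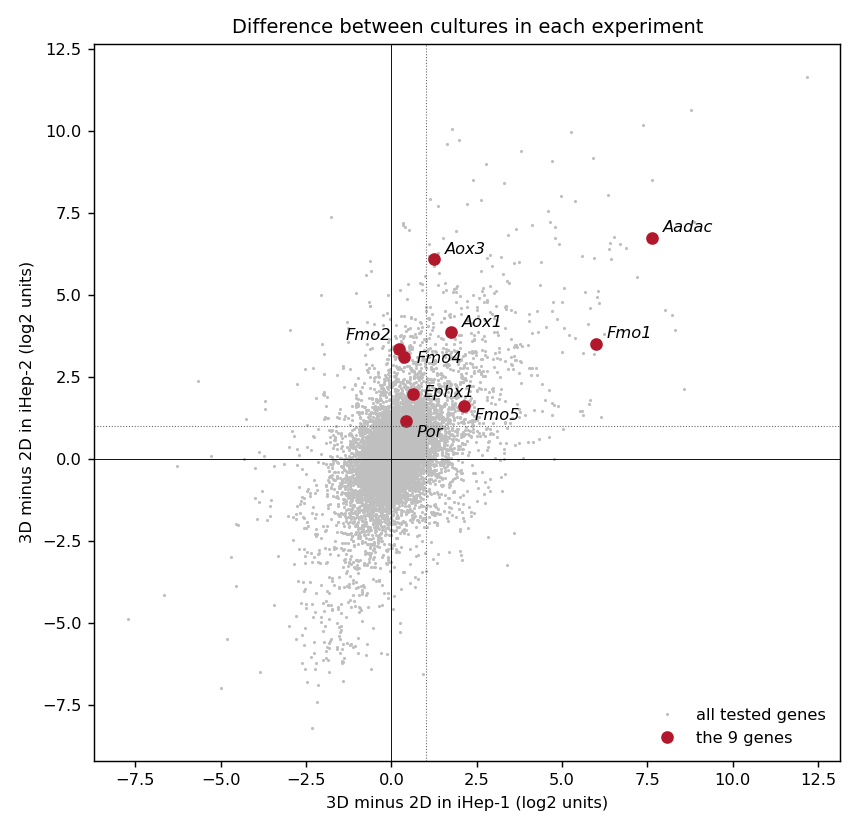
Difference between 3D and 2D of every tested gene in iHep-1 (horizontal axis) and iHep-2 (vertical axis), both in log2 units; grey points are the 16451 tested genes, red points the 9 members, and dotted lines mark 1 log2 unit. All 9 red points lie right of and above 0, 5 of them beyond 1 in both experiments, and Aadac (7.62 and 6.75), whose 2D array of iHep-1 was not well above background, lies at the upper right.

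The experiments differed in these genes too, and not in 1 direction. The question here is how far 2 independent preparations of iHep cells had the same levels. Differences in this paragraph and the next are iHep-2 minus iHep-1, first in 2D and then in 3D culture. Fmo1, Fmo4 and Aadac were at least 1 log2 unit higher in iHep-2 in both cultures, 3 of 9 against 5.12% of all tested genes, and 1 of 9 after normexp background correction. Fmo4 differed by 2.89 and 5.63. In 2D of iHep-1 neither Fmo1 nor Aadac was well above background, so that in 2D they were at least 2.25 and at least 5.41 log2 units higher in iHep-2; in 3D they were 1.99 and 6.67 higher. Fmo2 differed by 0.25 in 2D, with both arrays at about the lowest signal well above background, and by 3.37 in 3D. Fmo5 (-0.22 and -0.73) and Por (-0.99 and -0.24) were lower in iHep-2 in both cultures. The dimmest Fmo5 probe, not well above background in 2D of iHep-1, was instead at least 0.41 log2 units higher in iHep-2 in 2D, and it differed by -0.78 in 3D. In all, 4 of 9 were higher in both cultures (30% of all genes) and 2 of 9 lower (33.6%), and both iHep-2 arrays lay above both iHep-1 arrays for 2 of 9 (19%), Fmo4 and Fmo2, the latter having passed the filter through those arrays alone.

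Aox1 (-0.87 and 1.23), Aox3 (-3.06 and 1.78) and Ephx1 (-1.26 and 0.10) were lower in iHep-2 in 2D and higher in 3D. The share of members higher in iHep-2 was 4 of 9 in 2D (46.2% of all genes) and 7 of 9 in 3D (50.2%). Limma called 0.128% of tested genes higher and 0.201% lower in iHep-2 at an adjusted p under 0.05, and no member among them. That count of 54 genes, 21 higher and 33 lower, was 203 higher and 200 lower on the spike-in scale, where Fmo4 (4.37, adjusted p = 0.00524 in limma) and Aadac (7.22) were called, and 0 when any 1 of the 4 arrays was left out. Fmo4 had the smallest p of the 9, with a mean difference of 4.26 (SE 1.13, limma unadjusted p = 0.020, adjusted p = 0.265, n = 2 arrays per group). With normexp that mean difference was 2.31. At an unadjusted p under 0.05, 5.59% of all genes were higher. In every fit of this comparison the 2 arrays of a group are the 2D and 3D cultures of 1 preparation. Preparations were thus not replicated, and these p-values do not measure the spread between preparations. With culture as a block Aadac passed the threshold, with a mean difference of 7.11 and an adjusted p of 0.0399 in limma, a fit that takes its dim value in 2D of iHep-1 as measured. With values below background raised to the lowest signal well above it, a setting added after the data were seen, the mean was 6.04 and the adjusted p 0.0462. In the first of these fits 0.857% of genes were called higher and 0.985% lower, and it held 3 of 9 members higher at an unadjusted p under 0.05, where 8.16% of all genes were. Fmo2 was not well above background in iHep-1, and its mean over both cultures was at least 3.19-fold higher in iHep-2, a bound that rests on the 3D array of iHep-2. In 2D no bound above 1 could be given for it, and in 3D it was at least 10.3-fold higher; without that 3D array its mean difference was 0.13 log2 units.

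Relatives of the members were read from a fixed list. Of 8 with a probe, Fmo6, Fmo9, Aox4 and Ephx3 were not well above background on any array, and the other 4 were tested. Ephx4 differed by 0.74 and 0.43 and the soluble epoxide hydrolase Ephx2 by -0.17 and 0.45. Nceh1, a relative of Aadac that hydrolyses cholesteryl esters, differed by -0.11 and -1.57. The median of the 4 was 0.04, against 1.87 for the 9 members.

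Among carboxylesterases and other hydrolases of drugs, 16 of 17 tested genes were higher in 3D in both experiments and 11 by at least 1 log2 unit, against the 33.2% and 4.26% of all genes given above. Their median difference was 2.36 in iHep-1 and 3.00 in iHep-2. The 4 with the smallest p were the paraoxonase Pon1 (5.82 and 4.61) and the carboxylesterases Ces1g (4.90 and 6.55), Ces2e (1.18 and 1.61) and Ces1f (4.60 and 7.57). None of the 17 passed the adjusted threshold, and 8 of 17 had an unadjusted p under 0.05, where 7.03% of all genes had.

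Of 19 tested P450s, which draw electrons from Por, 18 were higher in 3D in both experiments (33.2% of all genes). At least 1 log2 unit higher in both were 13 (4.26%). The median differences of the 19, 2.37 and 4.33, stand beside 0.42 and 1.17 for Por itself. Cyp3a25 differed by 4.13 and 7.15, Cyp4a10 by 2.37 and 3.31, and Cyp2c37 by 3.28 and 5.66. Cyp1a2 was not well above background on either 2D array. It passed the filter through the 3D arrays alone, which set its direction, and it is counted in the 18 and the 13. The other electron carriers and haem enzymes were mixed: 6 of 13 were higher and 2 lower in both, and the medians were -0.17 and 0.38. Among them Alas1, which starts haem synthesis, differed by 1.80 and 1.06, Pgrmc1 by 0.35 and 0.73 and Cyb5r3, which reduces cytochrome b5, by 0.56 and 1.55, while Cyb5r1 differed by -0.98 and -2.42.

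Of 19 other oxidases and reductases of phase I, 16 were higher in 3D in both experiments (33.2% of all genes). At least 1 log2 unit higher in both were 8 (4.26%), and the medians of the 19 were 0.87 and 1.25. The carbonyl reductase Cbr3 differed by 3.66 and 3.01 and the quinone reductase Nqo1 by 2.75 and 2.54. Akr1c14, an aldo-keto reductase, differed by 0.87 and 2.50, and Akr1d1, which acts on bile acid precursors, was well above background only on the 3D arrays. Akr1d1 passed the filter through those arrays alone, which set its direction, and it is counted in the 16 and the 8. Xanthine dehydrogenase, Xdh, the nearest relative of the aldehyde oxidases on this list and chosen after its values were seen, differed by 3.08 and 2.64.

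Aldehyde oxidases need the molybdenum cofactor in a sulfurated form. Of 5 genes that make it, 4 were higher in 3D in both experiments (33.2% of all genes), with medians of 0.12 and 0.46. Mocos, the sulfurase that activates the cofactor of the oxidases, differed by 1.24 and 1.66, the largest of the 5. Mocs1 differed by 0.84 and 1.12, Gphn by 0.12 and 0.40, and Mocs2 by -0.06 and 0.46.

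Among 18 tested regulators of phase I genes, 12 were higher in 3D in both experiments (33.2% of all genes). At least 1 log2 unit higher in both were 2 (4.26%), and the medians of the 18 were 0.46 and 0.52. Nr1i3, the xenobiotic receptor CAR, differed by 1.59 and 3.51, Ppara by 0.74 and 1.32 and Cebpa by 0.17 and 1.55. No gene of the lists above passed the adjusted threshold in limma, and 1 of the 18 regulators had an unadjusted p under 0.05, a share near the 7.03% of all genes.

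**Figure D4:**
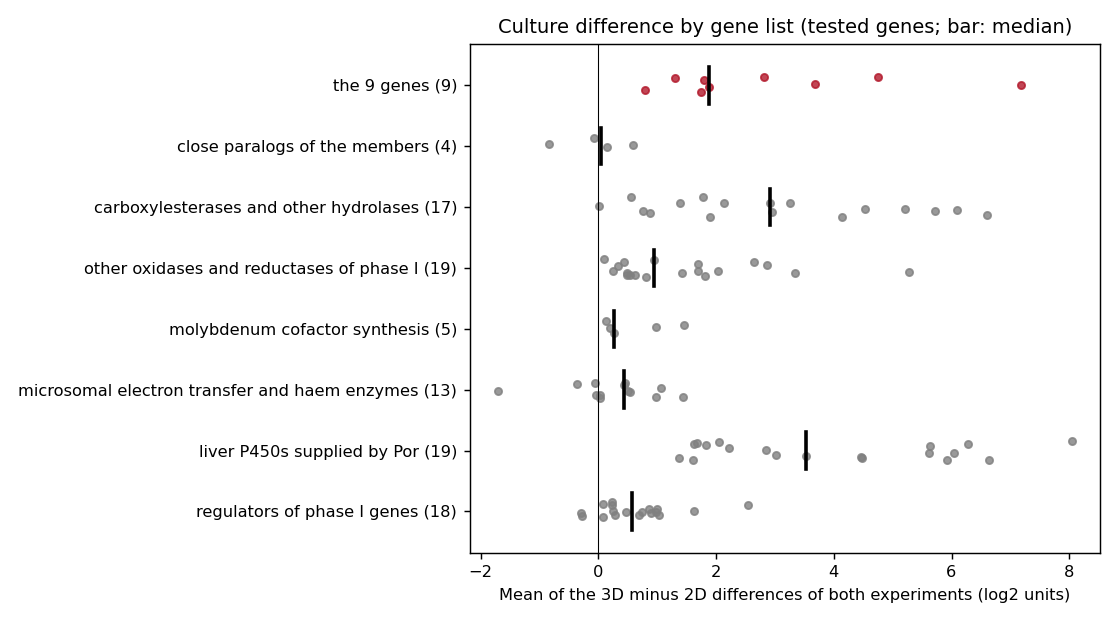
Mean of the 3D minus 2D differences of both experiments (horizontal axis, log2 units) for each tested gene of the 9 members and of 7 related lists, with the number of tested genes in brackets and the median as a bar. The medians are 1.87 for the members, 2.91 for carboxylesterases and other hydrolases, 3.53 for the P450s, 0.94 for other oxidases and reductases, 0.58 for regulators, 0.43 for electron transfer and haem, 0.26 for molybdenum cofactor synthesis and 0.04 for close relatives.

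The genes whose pattern over the 4 arrays was nearest to each member were found by the distance between profiles, each centred on its own mean (the root of the summed squared gaps, in log2 units). Among the 2 genes nearest to Aadac was Ugt2b38, a glucuronosyltransferase (2.00). Nearest to Fmo1 were Entpd8 (0.976) and the carboxylesterase Ces1d (1.09), and nearest to Aox3 were coagulation factor F10 (0.467) and Mat1a, which makes S-adenosylmethionine (0.623). Fmo4 was nearest to Styk1 (0.292) and the steroid reductase Srd5a2 (0.451), and Fmo2 to the collagen Col15a1 (0.367) and the glucose 6-phosphate carrier Slc37a4 (0.457). Aox1 was nearest to Nfe2 (0.242) and the folate enzyme Aldh1l1 (0.441). For the flatter profiles the distances were smaller, 0.083 from Fmo5 to Nsg1 and 0.119 from Ephx1 to Cyp2c23. Por was nearest to Ganc, at 0.037. Among the members themselves Ephx1 and Por were closest, at 0.60. With 4 arrays many genes can share a profile, and these distances are a description.

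The start regions of the genes with the largest and the smallest mean culture difference, Aadac and Por, are shown because they differ in base composition. Each is the 250 bases before the RefSeq start on build GRCm38.p6, 5′ to 3′ on the strand of the gene, with matches to the GC box GGGCGG and the CCAAT box, on either strand, in capitals. The Aadac window is chr3:60031538-60031787 and the Por window chr5:135688895-135689144, both on the plus strand.
Aadac: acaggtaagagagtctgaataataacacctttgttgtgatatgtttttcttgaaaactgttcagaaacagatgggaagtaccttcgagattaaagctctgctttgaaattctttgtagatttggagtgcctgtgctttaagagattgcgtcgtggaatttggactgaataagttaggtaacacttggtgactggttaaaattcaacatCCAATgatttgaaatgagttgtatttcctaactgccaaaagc
Por: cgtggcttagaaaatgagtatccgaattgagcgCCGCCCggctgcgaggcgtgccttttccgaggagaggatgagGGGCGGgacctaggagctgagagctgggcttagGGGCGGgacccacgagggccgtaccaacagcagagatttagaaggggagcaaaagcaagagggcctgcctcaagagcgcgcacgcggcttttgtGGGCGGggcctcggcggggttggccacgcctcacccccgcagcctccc
The Aadac window had 36.4% G and C and 3 CpG pairs, and the Por window 65.6% and 21, against medians of 52.4% and 6 over 32851 promoters in the RefSeq table. Por held 4 GC boxes and no CCAAT box, and Aadac held 1 CCAAT box and no GC box. The windows of the other members in that table lay between those of Aadac and Por in G and C. They had 39.6% and 47.6% for Fmo2, 42.4% for Fmo4, 51.2% for Ephx1, 52.8% for Aox1, 56% for Fmo5 and 56.4% for Aox3. Whether base composition goes with the culture difference was not tested.

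The table held 8 of the 9 genes, with 9 windows since Fmo2 has 2 starts, and Fmo1 was the gene not matched. In the 250 bases before and 50 after each start, on both strands, CCAAT was present in 6 of 9 windows (37.4% of all promoters) and GGGCGG in 4 of 9 (35.7%). The letters of the TATA box, TATAAA, were present in 2 of 9 (13.6%). Their first base was at -214 from the start for Ephx1 and at -195, on the opposite strand, for Fmo5. The core GCGTG of the xenobiotic response element was present in 3 of 9 (32.4%), for Aox1, Aox3 and Por. The FOXA sequence TGTTTAC was present in 1 of 9 (3.65%), for Fmo2. The antioxidant response core TGACNNNGC (12.4%), the C/EBP palindrome TTGCGCAA (0.183%), CAAAGTCCA as a short HNF4 or PPAR sequence (0.475%) and the direct repeat 1 element of nuclear receptors (0.0396%) were in none of the 9, which says only that these letters are not in these windows. No matches found in the members' windows shared a base.

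**Figure D5:**
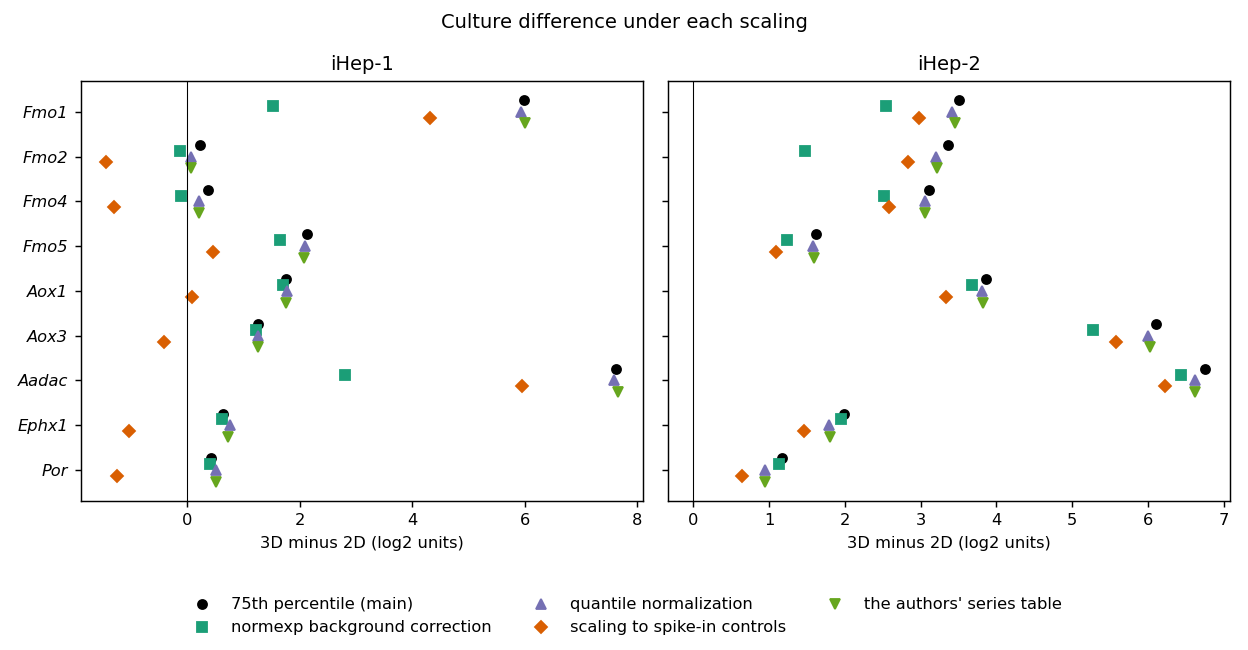
Difference between 3D and 2D (horizontal axis, log2 units) of each member in iHep-1 and iHep-2 under 5 ways of scaling the arrays, 1 symbol for each. In iHep-2 every symbol lies above 0, and in iHep-1 the spike-in scale places Fmo2, Fmo4, Aox3, Ephx1 and Por below 0 and the normexp background correction Fmo2 (-0.14) and Fmo4 (-0.11).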

How the data were processed

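Per the labels' protocols, an RNeasy Micro kit gave total RNA, and a Quick Amp kit amplified it with the dye Cy3. There was 1 array of Agilent design 014868 per sample, read in 1 colour. Per the file headers, 1 slide held all 4 arrays and they share 1 scan time. Spot intensity in the deposited scanner files is linear, and Agilent Feature Extraction had corrected it for background and set a flag for each spot. The submitters' processing notes give its version as 9.5.1.1, whereas the file headers read 10.7.1.1. The deposited series table also holds linear intensity values, with medians of 26.3 for both iHep-1 and 22.6 for both iHep-2 arrays, that ranked probes as the processed signal did. It was used as an alternative, and its centring stays unknown beyond these medians.

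From the log2 processed signal, the 75th percentile of its array was subtracted. Spots marked as outliers were left out (72 to 85 per array) and none was saturated. Of 41174 probes, 24844 were named by accession and 7855 by symbol through a RefSeq gene table of build GRCm38.p6, and 8475 kept the file's name. A gene was tested where the flag for well above background was set on 2 or more arrays, each through its brightest probe. The two-sided test was that of limma 3.58.1 under R 4.3.3 (2 residual and 1.58 prior degrees of freedom, Benjamini-Hochberg adjustment over 16451 genes, threshold 0.05). The step was also run on simulated data without an effect shared by the arrays of an experiment. That run does not show how the test behaves on paired arrays. In the comparison of cultures without a block, p-values rest on the spread between the 2 experiments within each culture. In the comparison of experiments without a block, they rest on the spread between the cultures within each experiment. With a block, p-values of either comparison rest on how far the culture difference varied between the experiments. The number of arrays limits the precision.

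Same-numbered arrays come from the same experiment per the design text and so are paired; their deviations from the group means correlated (r = 0.66 across genes). The fit with the experiment as a replicate block was an alternative, as were another background correction, quantile and spike-in scaling, the series table, other filters and probe rules, and leaving out each array. Raising values below background to the lowest signal well above it was added after the data were seen. From each related list, the up to 4 tested genes with the smallest p could be named; some items that the rules take are not reported here. The members, lists and tests were chosen with earlier results of these data known.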

Additional observations from a re-analysis of the deposited data

Results flagged for a closer look

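In 3 members the experiments differed in opposite directions in the 2 cultures, as iHep-2 minus iHep-1 in log2 units. Aox1 was lower in iHep-2 in 2D (-0.87) and higher in 3D (1.23). Aox3 was lower by the most in 2D (-3.06) and higher in 3D (1.78). Ephx1 was lower in 2D (-1.26) and nearly level in 3D (0.10). Each value rests on 1 array per experiment and culture, and the difference between cultures was not tested.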

How the results depend on the processing

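The number of genes past the adjusted threshold for 3D minus 2D was 0 here and 0 with the experiment as a replicate block, and it ranged from 0 to 0 when each array was left out. It was 291 on the spike-in scale (76 higher, 215 lower), where Fmo1 and Aadac were called and the mean of Por was -0.30. For iHep-2 minus iHep-1 the number was 54, and 103 with normexp, 126 with quantile normalization, 403 on the spike-in scale, 136 in the series table, 3 when a gene had to be well above background on all 4 arrays, 303 with culture as a block, 23 with dim values raised to the lowest signal well above background and 230 with these and the culture block (both settings added after the data were seen), and from 0 to 0 when an array was left out. Of the members, 5 were at least 1 log2 unit higher in 3D in both experiments (4.26% of all genes), and 2 on the spike-in scale, for which the share of all genes is not given. The 3 at least 1 log2 unit higher in iHep-2 were 1 with normexp. Higher in 3D in both experiments were 9 members here and 7 with normexp, for which the share of all genes is not given. Leaving out arrays changed the sign of Fmo4 (3D minus 2D from -1.08 without 3D of iHep-2 to 4.55 without 3D of iHep-1). For iHep-2 minus iHep-1 it changed that of Fmo5 (from -1.54 without 2D of iHep-1 to 0.33 without 2D of iHep-2 and 0.59 without 3D of iHep-1) and Aox1 (from -1.75 without 3D of iHep-2 and -0.70 without 2D of iHep-1 to 2.11 without 2D of iHep-2). It did so too for Aox3 (from -3.69 without 3D to 2.41 without 2D of iHep-2) and Ephx1 (from -1.57 without 3D to 0.41 without 2D of iHep-2). Without an array, 1 culture lacks an experiment and 1 experiment lacks a culture. Each such mean therefore mixes the difference between cultures with that between experiments. Its change of sign is not a measure of how stable either difference is. Of the other settings per member, 119 for culture and 113 for the experiments kept direction and side of the threshold. With raised values the replicate block again called 0 genes for 3D minus 2D. Without an array, counts over both experiments cannot be made, and a slide block was not possible with 1 slide.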
